A study of Homo sapiens with 63 samples.

Results

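Under a β-catenin-directed peptide, 6 genes with mostly late increases are described together: the secreted proteins EDIL3 and SEMA3A, the membrane protein TNMD, and the signalling, membrane and channel genes RGS2, TMCC3 and KCNJ15. They are 6 of the 13962 genes in the expression table. They were chosen by their measured log2 fold changes under 10 µM Helicon 4 relative to DMSO, so every member value from those libraries is given as a description and carries no test. The cells were COLO320DM, a human colorectal adenocarcinoma line, kept in RPMI with 4% FBS. They received Helicon 4, a helicon peptide made against the β-catenin/TCF interaction, or its companion Helicon 4-neg, each at 1, 3 or 10 µM, or DMSO as vehicle. RNA was taken at 6, 24 and 48 h, giving 21 groups of 3 libraries and 63 libraries in all. The labels call the 3 samples of a group biological replicates but do not say whether they were separate cultures, so p-values measure the spread between these samples.

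EDIL3 is a secreted matrix protein that binds αv integrins, and SEMA3A is a secreted guidance cue that signals through neuropilins and plexins. TNMD is a membrane glycoprotein best known from tendon. RGS2 switches off G-protein signalling by speeding GTP hydrolysis on Gq, KCNJ15 is an inwardly rectifying potassium channel, and TMCC3 is a membrane protein of the endoplasmic reticulum. β-catenin bound to TCF/LEF factors switches on Wnt target genes, and in colorectal cancer this complex is commonly active through loss of its destruction machinery.

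The genes lie on 6 chromosomes (GRCh38, GENCODE 29): EDIL3 at chr5:83940554-84384793 on the minus strand, SEMA3A at chr7:83955777-84492724 (minus), TNMD at chrX:100584802-100599885 (plus), RGS2 at chr1:192809039-192812283 (plus), TMCC3 at chr12:94567124-94650562 (minus) and KCNJ15 at chr21:38155549-38307357 (plus). All 6 are protein coding. AC113383.1 and AL390957.1 overlap the exon span of EDIL3 and RGS2 on the opposite strand, and MIR7844 and DSCR8 overlap TMCC3 and KCNJ15 on the same strand; the sources used here do not say whether counting used the strand, and none of these 4 genes is in the table. RefSeq (GRCh38.p14) gave a promoter window for 5 of the 6 genes, with no entry for SEMA3A. The 250 bases before the RefSeq start of EDIL3 and of RGS2 are printed because these genes differed in time course at 10 µM. EDIL3 stood highest at 24 h and RGS2 at 48 h. EDIL3 has 2 windows, of which the first is printed. Its RefSeq start lies upstream of the GENCODE span of EDIL3 given above. The EDIL3 window (chr5:84384881-84385130, minus strand) is 61.2% GC and 72.4% purine, against medians of 58% and 50% over all 35116 promoter windows. Capitals in the RGS2 window (chr1:192808789-192809038, plus strand) mark the core of a cyclic AMP response element, TGACG on the opposite strand, 181 to 177 bases before the start.
EDIL3: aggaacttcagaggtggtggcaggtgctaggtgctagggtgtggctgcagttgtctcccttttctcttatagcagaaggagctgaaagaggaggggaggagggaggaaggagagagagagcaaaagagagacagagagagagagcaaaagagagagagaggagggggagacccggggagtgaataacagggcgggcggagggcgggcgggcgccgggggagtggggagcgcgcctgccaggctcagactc
RGS2: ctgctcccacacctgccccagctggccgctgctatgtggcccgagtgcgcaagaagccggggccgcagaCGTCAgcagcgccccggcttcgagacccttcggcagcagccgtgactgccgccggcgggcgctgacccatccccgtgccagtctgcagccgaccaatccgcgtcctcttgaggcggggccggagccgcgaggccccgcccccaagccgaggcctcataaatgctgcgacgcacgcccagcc
The motifs searched, on both strands, were TCF/LEF CTTTGA, E-box CACGTG, the cyclic AMP response element TGACGTCA and its core TGACG (which the longer form contains), AP-1 TGANTCA (which reads the same on both strands), FOXO TGTTTAC and the TATA-box TATAAA. Of all windows, 11.2%, 6.34%, 1.65%, 21.2%, 6.57%, 2.98% and 10.7% hold them, in that order. The AP-1 letters occurred in the KCNJ15 window and in the second of the 2 TMCC3 windows, and the TATA-box letters in the TNMD window. Each of these windows overlaps an annotated exon of its own gene, and the matches lie inside the GENCODE gene spans given above. The 30 bases around these matches are printed with the match in capitals: TNMD at chrX:100584893-100584922 (plus), TMCC3 at chr12:94616030-94616059 (minus) and KCNJ15 at chr21:38272462-38272491 (plus).
TNMD: atatttgagccaTATAAAttcagcttctcc
TMCC3: aaagtccaggcTGAGTCAtatggtaggtgc
KCNJ15: cttccccctgcTGAGTCAgttccccagatc
The TCF/LEF letters were in none of the windows of the 5 genes. A match describes letters in a window and is not evidence of binding, and a missing match says only that these letters are not there.

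Levels are given as scaled CPM, the deposited depth-normalised read counts after the authors' library scaling. Libraries held 16628595 to 32860333 reads, so 1 read was worth 0.0301 to 0.0622, and each of the 6 genes had 30 to 1423 reads in every library. The colorectal markers CDX2 and KRT8 were present in every library (2234 to 3977 and 142 to 340), whereas EPCAM stayed between 1.04 and 4.16 and CDH1 between 0 and 2.51. Between DMSO and 10 µM Helicon 4 at 48 h, 4 of the 5 colorectal and epithelial markers tested were higher and 1 lower (limma). In that contrast 31.1% of all genes were higher and 28.7% lower. At 24 h 2 of the 5 were higher and 1 lower, where 25.1% of all genes were higher and 27.6% lower. The levels that follow are those at 48 h. CDX2 fell from 3869 to 2319, whereas KRT8 rose from 213 to 340, KRT18 from 106 to 128, EPCAM from 1.3 to 3.41 and CDH1 from 0 to 1.05. EPCAM and CDH1 were low and unsteady across times. In DMSO at 6 h EPCAM averaged 3.20 and CDH1 1.17. At 24 h CDH1 went the other way, from 0.836 in DMSO to 0.031, and was not called (limma, adjusted p 0.052). The Wnt feedback genes AXIN2 and NKD1 were both lower under 10 µM Helicon 4 than in DMSO at 6, 24 and 48 h (limma). In bulk RNA, more RNA per cell and a larger share of cells carrying it cannot be told apart.

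EDIL3 stood at a single-digit level in every library without Helicon 4. Over the 36 DMSO and Helicon 4-neg libraries its level ran from 3.71 to 8.35 with a median of 6.59. Under 10 µM Helicon 4 the 3 libraries read 7.66, 5.79 and 7.71 at 6 h, within that range. They read 50.4, 53.6 and 51.2 at 24 h and 44.4, 43.5 and 46.2 at 48 h, so the highest level came at 24 h and the 48 h libraries all lay below the 24 h ones. At 3 µM they were 26.5, 26.6 and 26.8 at 24 h and 34.5, 34.9 and 34.9 at 48 h. At 1 µM they were 13, 15.5 and 13.9, then 18.5, 17.9 and 16.3. Each of these 18 late Helicon 4 libraries exceeded every control library. Against DMSO, the 10 µM level was 9.77 times as high at 48 h.

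SEMA3A stood about level from 24 to 48 h at 10 µM, and at 1 µM all 3 libraries cleared the control range at 48 h but not at 24 h. Its 36 control libraries ran from 2.35 to 5.8 (median 4.07). At 10 µM the 3 libraries held 26.2, 23.7 and 25 at 24 h and 24.6, 25.2 and 26.5 at 48 h, overlapping between the times. At 3 µM they held 14.1, 13.7 and 11.6 at 24 h and 19.9, 17.3 and 18.9 at 48 h. At 1 µM they held 5.79, 6.52 and 4.53 at 24 h, overlapping the control range, and 11.6, 10.4 and 9.72 at 48 h, above it.

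TNMD had dose groups that were separate at 24 h and at 48 h but in a different order. In DMSO it read 6.4, 5.32 and 5.53 at 6 h, against a mean of 2.96 ± 0.104 (SD, n = 3) at 24 h. At 24 h under Helicon 4 the libraries read 4.26, 4.65 and 5.05 at 1 µM, 12.3, 13.2 and 13.9 at 3 µM and 20.1, 20.9 and 19.9 at 10 µM. At 48 h they read 35.2, 36.1 and 33.6 at 1 µM, 49.7, 50.4 and 52.3 at 3 µM and 27, 28.1 and 30.5 at 10 µM. The 3 dose groups did not overlap at 48 h, with 3 µM highest and 10 µM lowest. TNMD was also the member with the highest level per kb of the table's gene length at that time, 31.6 at 3 µM and 17.7 at 10 µM.

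RGS2 had the largest ratio of its 48 h to its 24 h level at 10 µM among the 6 genes. Its control libraries ran from 1.85 to 3.89 (median 2.90). At 10 µM the libraries read 5.29, 4.68 and 4.08 at 6 h, all above the controls, then 8.93, 10.3 and 11.4 at 24 h, and 31.7, 32.8 and 33.7 at 48 h, a 3.21-fold step between the last times. At 3 µM they read 7.12, 7.42 and 8.2 at 24 h and 26.9, 31.1 and 29.7 at 48 h. At 1 µM they read 4.65, 4.39 and 4.1, then 13, 13.6 and 13.5.

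TMCC3 stood above its controls (2.73 to 4.99, median 3.80) at every time at 10 µM, reading 8.3, 7.2 and 8.43 at 6 h, 24, 28.1 and 26.1 at 24 h, and 35.9, 34.5 and 36.5 at 48 h. At 3 µM it read 16.2, 19.2 and 16.1 at 24 h and 32.7, 35.6 and 31.8 at 48 h, overlapping the 10 µM libraries at 48 h. At 1 µM the 48 h libraries read 14, 14.9 and 14.5.

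KCNJ15 had the smallest ratio to DMSO of the 6 genes at 10 µM and 48 h, 2.77, with controls from 5.15 to 9.64 (median 7.75). At 10 µM it read 11.7, 13.3 and 11.8 at 6 h, 27.8, 27.8 and 29.9 at 24 h, and 20.2, 18.8 and 22 at 48 h, so it stood highest at 24 h. At 3 µM it read 17.2, 20.5 and 19.8 at 24 h and 20.6, 21.8 and 22.3 at 48 h. At 1 µM it read 11.1, 10.4 and 12.2, then 21.2, 19.8 and 17.6. At 48 h the 3 doses overlapped: the 1 µM level made up 93.6% of the 10 µM difference from DMSO, against 21.6% at 24 h.

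**Figure D1:**
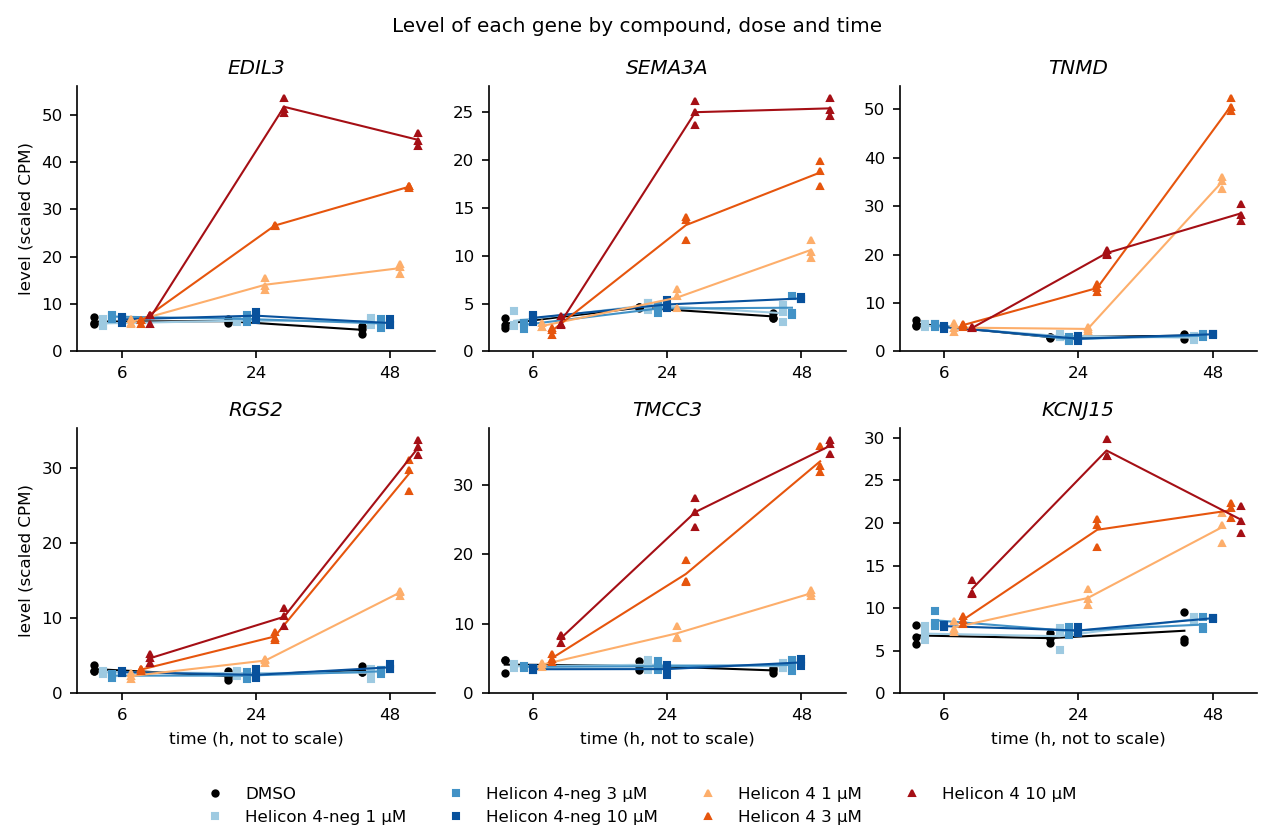
Level of each gene (y axis, scaled CPM) against time (x axis, hours, not to scale). Points are single libraries, lines join group means of 3 libraries, black is DMSO, blue Helicon 4-neg and red Helicon 4 with darker shades for higher doses. The 3 µM line of TNMD ends at 50.8, above the 10 µM line at 28.5.

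Because the genes were chosen on 10 µM Helicon 4 relative to DMSO, Helicon 4 was tested at 3 µM and 1 µM against Helicon 4-neg at the same dose and time. These 36 comparisons used limma on log2(level + 1), with p-values adjusted over all genes of each contrast. They are not fully independent of the choice. Earlier results of these data were known, and each fit shared its estimate of the spread with the 10 µM and DMSO libraries. At 3 µM and 24 h all 6 genes were higher, where 19.6% of all genes were called higher and 23.3% lower. EDIL3 rose by 1.82 log2 units (95% interval 1.64 to 1.99, adjusted p 6.9e-13) and TNMD by 2.00 (1.78 to 2.21, adjusted p 4.3e-12). TMCC3 rose by 1.89, SEMA3A by 1.37, RGS2 by 1.35 and KCNJ15 by 1.27. At 48 h all 6 were higher again (25.9% of all genes, with 26.6% lower). TNMD led with 3.61 (3.41 to 3.81, adjusted p 9.1e-19), followed by RGS2 with 2.94, TMCC3 with 2.76, EDIL3 with 2.38, SEMA3A with 1.84 and KCNJ15 with 1.31. The Helicon 4-neg libraries at 3 µM and 48 h overlapped the DMSO libraries of that time for each gene. For TNMD they read 3.34, 3.51 and 2.92, against 49.7, 50.4 and 52.3 under Helicon 4. At 10 µM and 48 h the Helicon 4-neg libraries all lay above DMSO for SEMA3A (mean 5.54 against 3.66), EDIL3 (6 against 4.57) and TMCC3 (4.47 against 3.32). At 1 µM they did so for EDIL3 (6.41) and TMCC3 (3.92). For TNMD, RGS2 and KCNJ15 they overlapped DMSO at both doses. These differences from DMSO were not tested.

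At 1 µM and 24 h, 5 of 6 were higher (11.4% of all genes, with 14.1% lower). EDIL3 rose by 1.01, TMCC3 by 0.91, KCNJ15 by 0.68, RGS2 by 0.54 and TNMD by 0.44. SEMA3A differed by 0.17 (−0.05 to 0.39, adjusted p 0.25), so its response at this dose and time was not resolved. At 48 h all 6 were higher (15.8% of all genes, with 20.1% lower), TNMD by 3.23 and RGS2 by 1.95 at one end, SEMA3A by 1.23 and KCNJ15 by 1.08 at the other. At 6 h no gene was called at either dose by limma or by edgeR. At 3 µM, where 0.475% of all genes were called higher and 1.16% lower, RGS2 (0.31, adjusted p 0.21) and TMCC3 (0.32, adjusted p 0.22) were higher at an unadjusted p below 0.05. At 1 µM none was, and 0.00766% of all genes were called higher and 0.0536% lower.

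**Figure D2:**
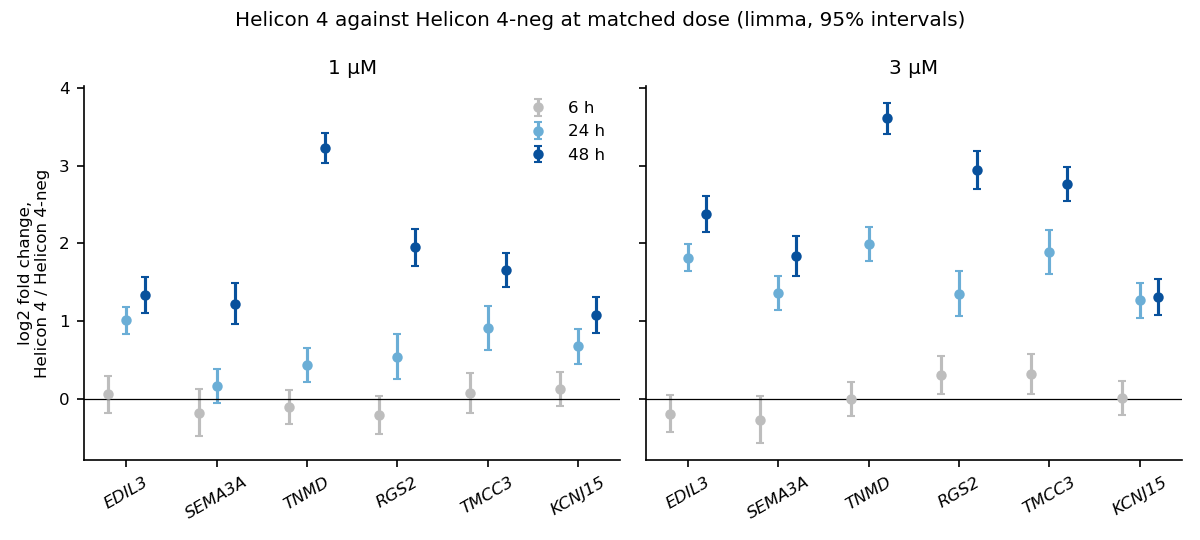
Helicon 4 against Helicon 4-neg at 1 µM and 3 µM. The y axis is the log2 fold change from limma and bars are 95% intervals; grey, light blue and dark blue mark 6, 24 and 48 h. The 48 h points run from 1.08 (KCNJ15, 1 µM) to 3.61 (TNMD, 3 µM), and the 6 h points at 3 µM from −0.27 to 0.32.

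Dose was tested the same way between 3 µM and 1 µM of Helicon 4. At 24 h all 6 were higher at 3 µM (7.70% of all genes, with 12.4% lower), by 0.67 for RGS2 to 1.32 for TNMD. At 48 h, 5 of 6 were higher (12.0% of all genes, with 10.5% lower): TMCC3 by 1.15, RGS2 by 1.07, EDIL3 by 0.95, SEMA3A by 0.77 and TNMD by 0.53. KCNJ15 differed by 0.14 (−0.09 to 0.37, adjusted p 0.41). At 6 h none was called (0.0919% of all genes higher, 0.253% lower), by limma or edgeR, and RGS2 alone was higher at an unadjusted p below 0.05. Between 3 µM and 1 µM of Helicon 4-neg no member was called at any time by limma or edgeR. There 0%, 0.522% and 0% of all genes were called higher at 6, 24 and 48 h, and 0%, 2.06% and 0% lower. At an unadjusted p below 0.05 EDIL3 (0.28) and KCNJ15 (0.26) were higher at 6 h and TNMD (−0.23) lower at 24 h.

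**Figure D3:**
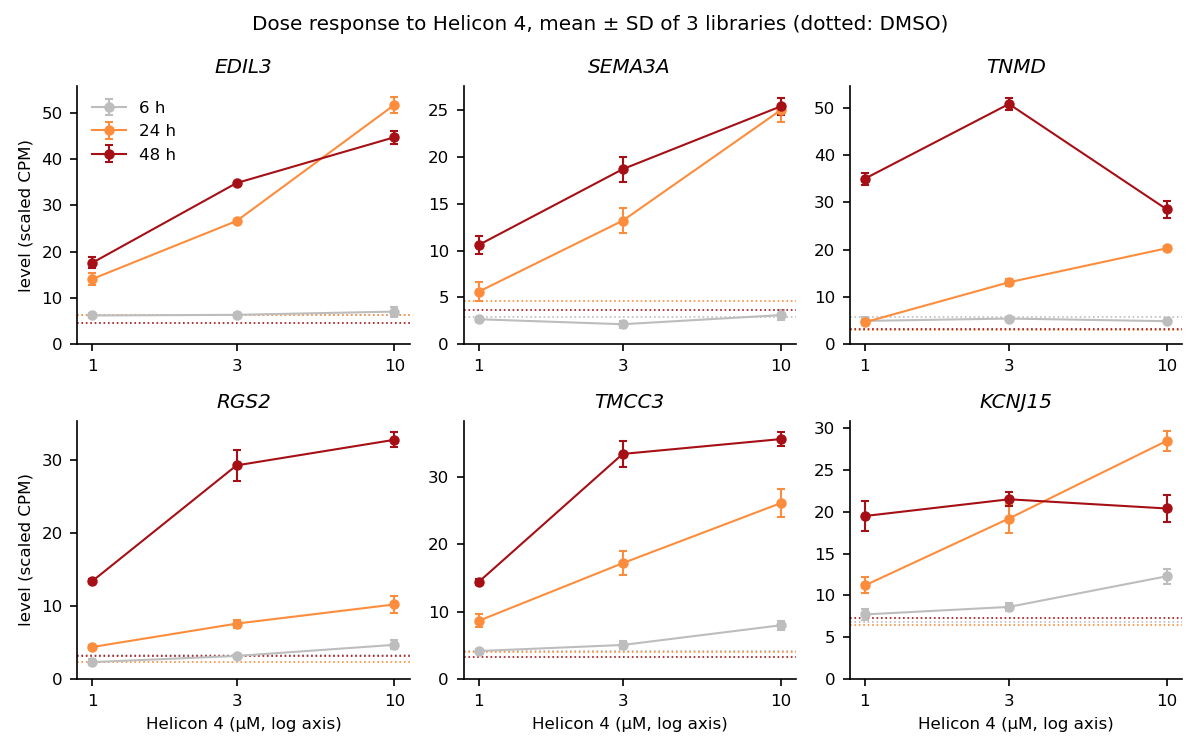
Level (y axis, scaled CPM) against Helicon 4 dose (x axis, log scale) at 6, 24 and 48 h; points are means of 3 libraries, bars SD, dotted lines the DMSO mean of the same time. KCNJ15 at 48 h is 19.5, 21.5 and 20.4 at 1, 3 and 10 µM, while EDIL3 climbs from 17.6 to 44.7.

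The growth of the compound difference with time was tested at 3 µM. From 6 to 24 h it grew for all 6 (14.6% of all genes, with 17.3% shrinking), by 1.04 for RGS2 to 2.00 for EDIL3 and TNMD. From 24 to 48 h it grew for 4 of 6 (8.00% of all genes, with 6.00% shrinking): TNMD by 1.61, RGS2 by 1.59, TMCC3 by 0.87 and EDIL3 by 0.56. KCNJ15 differed by 0.04 (−0.27 to 0.35) and SEMA3A by 0.47 (0.11 to 0.83, adjusted p 0.076), which passed at 0.62 (adjusted p 0.015) without Helicon 4-neg 3 µM 48 h replicate 1. Under Helicon 4-neg at 3 µM alone, SEMA3A rose by 0.54 from 6 to 24 h (10.7% of all genes higher) and TNMD fell by 0.86 (10.6% lower). From 24 to 48 h TNMD rose by 0.26 (8.71% of all genes higher, adjusted p 0.046), a call lost with edgeR (adjusted p 0.062) and, at adjusted p 0.14 to 0.24, without replicate 1 or 3 of 24 h or replicate 1 or 2 of 48 h.

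The genes around these members moved in both directions under 10 µM Helicon 4 against DMSO. At 48 h, 31.1% of all genes were higher and 28.7% lower (limma), at 24 h 25.1% and 27.6%, and at 6 h 5.32% and 8.40%. At 6 h the split turned under median centring of each library, from 694 higher and 1097 lower to 1370 and 766. At 48 h it also turned, from 4196 higher and 3865 lower to 3657 and 4456. Of 11 semaphorin ligands and receptors tested, none was called at 6 h by limma or edgeR (1 higher and 3 lower at an unadjusted p below 0.05), 4 were higher and 3 lower at 24 h, and 6 were higher and 2 lower at 48 h, with a 48 h median of 0.44 against 0.02 over all genes. At 48 h SEMA3B went from 0.857 to 6.29 (2.00), SEMA3C from 27.6 to 71.7 (1.35), PLXND1 from 2.33 to 6.34 (1.15) and PLXNA3 from 5.86 to 13.7 (1.10), while SEMA3D fell by 0.71. NRP2, a semaphorin coreceptor, rose from 241 to 328 (0.44), whereas NRP1 read 0.314 and 0.173 and was not called. Among 6 tested relatives and receptors of EDIL3, at 48 h 2 were higher and 1 lower: MFGE8, its closest relative, rose from 25.3 to 75.7 (1.54) and ITGB1 by 0.29. ITGB5 fell by 0.16, a call lost (−0.12 to −0.17) without Helicon 4 replicate 1 or 3 or DMSO replicate 1 or 3.

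At 48 h RGS5, a relative of RGS2 in the R4 family, rose from 2.42 to 16.7 (2.38, adjusted p 2.7e-14); of 4 family members tested, RGS3 also rose (1.03) and RGS4 fell by 0.59. In the Gq pathway, 2 of 9 were higher and 4 lower at 24 h. At 48 h 2 of 9 were higher, PLCB4 (24.4 to 63.1, 1.34) and GNAQ (0.40), and 3 lower, PLCB3 (−0.64), ITPR1 (−0.62) and ITPR2 (−0.39), so 5 of 9 were called where 31.1% of all genes were higher and 28.7% lower. At 48 h, of 6 inward rectifiers tested besides KCNJ15, KCNJ13 rose from 0.149 to 11.1 (3.39) and KCNJ12 from 3.43 to 9.41 (1.25), while KCNJ6 fell from 6.11 to 0.270 (−2.48, adjusted p 4.6e-14) and KCNJ8 by 0.57. KCNJ13 passed the filter on low values only through Helicon 4 groups, so its change is given as a description. At 48 h TMCC1 and TMCC2 were not called by limma or edgeR, nor at an unadjusted p below 0.05. LECT1, the older symbol of the TNMD relative CNMD, was called at 0.80 (adjusted p 0.026) on libraries that differed widely (SD 0.798 about a mean of 0.913), and lost the call (0.56 to 0.79) without Helicon 4 replicate 1 or 2 or DMSO replicate 2 or 3. It was also lost with robust variances (adjusted p 0.059) and in 1 fit of all 63 libraries (adjusted p 0.062). At 24 h LECT1 went the other way, from 0.659 in DMSO to 0.0147, and was not called (−0.64, limma, adjusted p 0.11). Without DMSO 24 h replicate 1 it was called lower (−0.97, adjusted p 0.024).

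Of the 12 closest measured genes on the chromosomes tested at 48 h, 3 were higher and 6 lower, where 31.1% of all genes were higher and 28.7% lower. The 3 higher include HAPLN1 and PCLO, whose entry into the test is limited as given below. HAPLN1, which encodes a link protein of hyaluronan matrix and lies 218.9 kb from EDIL3, read 0.124, 0 and 0.206 in DMSO (6 reads in all) and 16.5, 18.3 and 17.5 at 10 µM (4.06 on the log2 scale). It passed the filter only through Helicon 4 groups, so its differences are given as a description, and a pseudocount of 1 understates them. At 3 µM it exceeded Helicon 4-neg by 1.86 at 24 h and 4.06 at 48 h. At 1 µM it did so by 0.46 and 2.02. KCNJ6, 34.2 kb from KCNJ15, went the other way, from 6.6, 6.31 and 5.42 in DMSO to 0.229, 0.303 and 0.279, and ERG, 72.67 kb on the other side, fell by 1.30. KCNJ6 was lower than under Helicon 4-neg by 2.39 log2 units at 3 µM and 24 h. TSPAN6, 27.22 kb from TNMD, rose by 0.22, PCDH19 fell by 0.87, UCHL5 by 0.45 and NDUFA12 by 0.29. PCLO was below the filter on low values at 6 and 24 h. At 48 h it was called at 0.34 (adjusted p 0.0495), a call lost (0.25 to 0.39) without Helicon 4 replicate 1 or 3 or any 1 of the DMSO libraries. It was also lost with edgeR (1.68, adjusted p 0.059), with median centring (0.29, adjusted p 0.095) and with the replicate block (0.34, adjusted p 0.051).

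**Figure D4:**
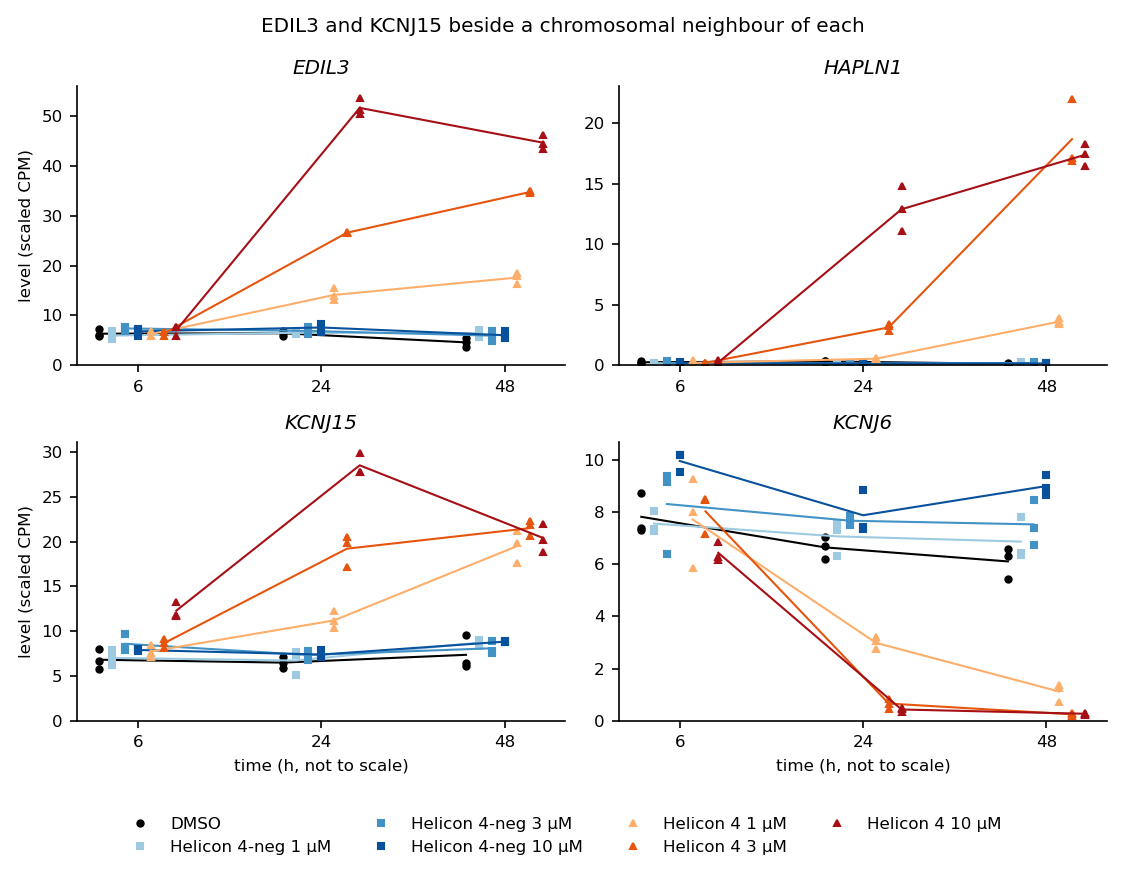
EDIL3 and HAPLN1 (top) and KCNJ15 and KCNJ6 (bottom), level (y axis, scaled CPM) against time (x axis, hours, not to scale). Points are libraries and lines group means; colours are as in the plot of levels by group. KCNJ6 is 0.270 under 10 µM Helicon 4 at 48 h, when KCNJ15 is 20.4.

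Markers of other cell types were read beside these values, and their part in the results was not tested. The calls below are for 10 µM Helicon 4 against DMSO at 48 h unless another time is named. At 48 h 31.1% of all genes were higher and 28.7% lower (limma). Fibroblast markers summed to 8.78 to 44.5 over the DMSO libraries and 26.5 to 30.8 under 10 µM Helicon 4 at 48 h, with COL3A1 alone of 5 called higher. The endothelial sum was 0.106 to 0.258 against 0.744 to 2.22 (2 of 2 higher), and the leukocyte sum 9.87 to 11.7 against 14.2 to 16.4 (2 higher, 1 lower). Of 5 markers listed for each, 2 endothelial and 3 leukocyte ones were measured. The endothelial markers KDR (0.0728) and TEK (0.09) and the leukocyte marker ITGAM (0.108) were near the floor in DMSO at 48 h. ITGAM was below the filter on low values at 6 and 24 h. At 24 h the endothelial and the leukocyte sum each overlapped between DMSO and 10 µM Helicon 4. The endothelial sum was then 0.194 to 1.23 against 0.407 to 0.796, and the leukocyte sum 13.2 to 15.6 against 14.5 to 16. The endothelial marker KDR read 0.484 in DMSO and 0.0496 under Helicon 4 at 24 h, and was not called. The neuroendocrine sum was 23.7 to 24.1 against 36.3 to 37.7 (1 of 3 higher). The tendon sum was 190 to 209 against 88.2 to 93.1, where THBS4 fell and the tendon factor MKX stayed between 0 and 0.884 in all libraries. Within that low range MKX averaged 0.0842 in DMSO and 0.732 under 10 µM Helicon 4 at 24 h (0.67 on the log2 scale). It was below the filter on low values at 6 and 48 h, so this change is given as a description. THBS4 was lower at 24 h (−0.70) and TNC was not called.

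The nearest patterns over the 21 group means of log2(level + 1), described with no test, were BMF for TMCC3 (r = 0.991; 4.6 in DMSO and 65.7 under 10 µM at 48 h), GRAMD1C for EDIL3 (0.988) and PHLDB1 for SEMA3A (0.986). CLDN14 (0.984), CYP26A1 (0.984) and ISX (0.983) came closest to RGS2, and ISX, the intestine-specific homeobox gene, went from 0.0587 to 14.8. In the same comparison CLDN14 went from 0.0349 to 1.18 and CYP26A1 from 0.195 to 3.95. These low DMSO levels rest on a few reads and limit the correlations. KNG1 was closest to TNMD (0.972) and GPA33, an intestinal surface antigen, to KCNJ15 (0.965). GPA33 read 21.5 at 24 h and 10 at 48 h, and so, like KCNJ15, stood higher at the earlier time. HOXB13 was among the nearest 3 of both TMCC3 and KCNJ15 (36.3 to 117). Among the 6 members r ran from 0.804 (SEMA3A and TNMD) to 0.965 (EDIL3 and TMCC3). These points share the same libraries and normalization.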

How the data were processed

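Polyadenylated RNA of 63 libraries (21 groups of 3) was sequenced. Per the submitters' processing notes the tools were Trimmomatic 0.39, STAR 2.7.7a, featureCounts of Subread 2.4.2 and edgeR 4.0.2, with GRCh38; whether counting used the strand is not given in the sources used here. The values deposited by the authors are a signal per gene (CPM scaled by size factors; column sums 929785 to 1059738), with a gene length. All values came out as whole reads within 0.01 read, so depth was recovered; reads without molecular identifiers are not independent molecules. No replicate pair of 63 was identical.

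Fits used limma 3.58.1 (R 4.3.3) with trend on log2(value + 1), 21 libraries per time or all 63, genes at 0.5 or more in at least 3 libraries, two-sided, Benjamini-Hochberg over all genes of a contrast (threshold 0.05), with 95% intervals. edgeR 4.0.16 quasi-likelihood on recovered reads was the alternative for calls; others were a pseudocount of 0.1, no filter, robust empirical Bayes, median centring, 1 fit of all 63 libraries, a replicate block and leaving out each library. The procedure was checked on simulated data. Members and gene lists (semaphorins, EDIL3 relatives, RGS, Gq, inward rectifiers, TMCC, chondromodulin, Wnt feedback, cell type markers) were chosen with earlier results of these data known. Named besides these were the 3 genes nearest in pattern to each member and the nearest measured genes on each side. Of 13962 identifiers, 13952 matched GENCODE 29.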

Additional observations from a re-analysis of the deposited data

Results flagged for a closer look

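The difference between Helicon 4 and Helicon 4-neg at 3 µM was not the same at the times compared, by a test of that change itself in limma. From 6 to 24 h it grew by 2.00 log2 units for EDIL3, 1.63 for SEMA3A, 2.00 for TNMD, 1.04 for RGS2, 1.57 for TMCC3 and 1.26 for KCNJ15. From 24 to 48 h it grew by 0.56 for EDIL3, 1.61 for TNMD, 1.59 for RGS2 and 0.87 for TMCC3. Because the genes were grouped for mostly late increases, this growth is not independent of the choice.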

How the results depend on the processing

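No called value changed sign under any alternative tried. Some values near 0 that were not called did, such as TNMD at 3 µM and 6 h (−0.0031 to 0.015 with centring) and RGS2 under Helicon 4-neg at 3 µM from 6 to 24 h (−0.0011 to 0.0027 with edgeR). Calls on the 6 genes were the same under each alternative except 2: with edgeR no gene (instead of TNMD) was higher from 24 to 48 h under Helicon 4-neg at 3 µM, a count of 0 to 1 when single libraries were left out, and the compound difference from 24 to 48 h held 4 to 5 genes. The other member counts did not change when a library was left out. Among list and neighbour genes at 6 h against DMSO, median centring called 1 higher instead of 0 (TMCC1, 0.26), and the count lower was 4 to 7 when a library was left out, 7 being without DMSO 6 h replicate 3. Over all genes, centring raised the 6 h count higher against DMSO from 694 to 1370 while 1097 lower became 766 (458 to 864 and 712 to 1310 leaving out a library). Centring also moved the split at 1 µM and 24 h from 1509 higher and 1863 lower to 1987 and 1370, at 3 µM and 6 h from 62 and 152 to 75 and 114, and for 3 against 1 µM at 48 h from 1614 and 1415 to 1247 and 1712. For 10 µM Helicon 4 against DMSO at 48 h it turned 4196 higher and 3865 lower into 3657 and 4456. Leaving out a library gave 14 to 40 higher at 3 µM and 6 h, 864 to 1640 at 1 µM and 24 h, and 599 to 1543 for Helicon 4-neg at 3 µM, 48 against 24 h (1201). The 1 µM count at 6 h was 1 higher and 7 lower, against 3 and 22 with robust variances, 0 and 4 with centring, 0 and 0 with the block, and 0 to 14 and 0 to 54 leaving out a library. For Helicon 4 at 3 against 1 µM at 6 h, 12 genes were higher, against 5 with centring, 7 with the block, 7 in 1 fit of 63 libraries and 2 to 7 leaving out a library. For Helicon 4-neg at 3 against 1 µM at 24 h, 69 higher and 272 lower became 136 lower with centring, 145 higher with the block, 580 and 733 in 1 fit, 326 higher with edgeR, and 0 to 76 and 1 to 225 leaving out a library; at 48 h, 0 and 0 reached 175 and 310. The same-number samples did not deviate together (mean residual correlation −0.0513, −0.0218 and −0.0471 at 6, 24 and 48 h), so the numbers were not taken to pair the samples; with the replicate block all 6 genes remained called at 3 µM and 48 h, and no member count changed. The cause of these changes was not tested. Levels near 0.1 rest on a few reads and limit HAPLN1 and KCNJ13 in controls. The same holds for CLDN14, ISX, MKX, KDR, TEK and ITGAM in DMSO at 48 h.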
